A study of Mus musculus with 12 samples.

Results

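The strain by diet comparison asked whether the liver answered CDAHFD differently in ICR and in C57BL/6J mice. CDAHFD is a choline-free diet rich in fat whose protein is replaced by amino acids, and it is used to bring on metabolic dysfunction-associated steatohepatitis. All 12 liver libraries of the series entered the comparison, 12 of 12, with 3 mice in each of 4 groups: ICR on CDAHFD, ICR on normal diet (ND), C57BL/6J on CDAHFD and C57BL/6J on ND (C57 and CDHFD in the labels). Every mouse was a wild-type male bought at 8 weeks of age and fed its diet for 10 weeks. C57BL/6J is an inbred strain, so its mice are close to genetically identical, whereas ICR is an outbred stock whose mice differ from each other. For each gene the strain by diet term is the log2 diet effect in ICR (CDAHFD over ND) minus the log2 diet effect in C57BL/6J. A positive term means that CDAHFD raised the gene more, or lowered it less, in ICR. A gene was called where the adjusted p of edgeR's quasi-likelihood test was under 0.05 over the 13901 genes tested, and levels are CPM, read counts scaled to a common library size after TMM adjustment. CPM are not corrected for gene length, so levels are compared within a gene only.

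Choline is needed to make phosphatidylcholine, the phospholipid that hepatocytes use to export fat, so a liver deprived of it stores triglyceride and becomes inflamed. Inflamed liver can carry interferon signals: type I interferons act on promoters through the interferon-stimulated response element (ISRE), and interferon-gamma through the gamma-activated site (GAS). Mouse liver also differs strongly between males and females under the control of growth hormone, and it turns thyroxine into the active thyroid hormone with the deiodinase Dio1. Genes of these programs are among those described below.

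Gene counts summed to 29665092 to 30826629 per library in ICR CDAHFD livers, 23363460 to 24205176 in ICR ND livers, 24612309 to 32214782 in C57BL/6J CDAHFD livers and 22245245 to 22752858 in C57BL/6J ND livers. The labelled tissue was checked with Alb, the main plasma protein of hepatocytes, which had 34600 to 97600 CPM, while Cpa1 and Prss2 of pancreas, Ckm of muscle and Adipoq of fat had at most 0.115 CPM in any library. Cela1, another pancreas gene of the same check, was not near 0 and had 5.46 to 44.8 CPM. The ICR ND group was uneven. Summed acute phase genes, which hepatocytes switch on during systemic inflammation, reached 65380, 213200 and 128600 CPM in its replicates 1, 2 and 3, and in the C57BL/6J ND group replicate 2 stood apart with 150500 CPM against 44070 and 53630 CPM in replicates 1 and 3. On CDAHFD the same sum ran over 36540 to 47840 CPM in ICR livers and 23760 to 35270 CPM in C57BL/6J livers. Because these are bulk samples, fewer cells of a type and less RNA per cell cannot be told apart.

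Most genes called for diet in both strains moved the same way, and the number of genes called for the strain by diet term depended on the test. By edgeR's quasi-likelihood test the term was called for 25 of 13901 genes (0.18%), of which 17 were higher (0.122%) and 8 lower (0.0575%) in ICR relative to C57BL/6J. On the same genes DESeq2 called 241 (1.73%), 123 higher and 118 lower, and edgeR's likelihood ratio test called 232, 114 higher and 118 lower, with all 25 among both. Other settings called fewer: limma-voom called 5, all among the 25. With the replicate number as a block, the quasi-likelihood test called 12, of which 11 were among the 25. The diet effect itself was called for 41.7% of the genes in ICR and for 45.6% in C57BL/6J. It was called in both strains with the same direction for 32.5% of the genes and in opposite directions for 11 genes (0.0791%). Across genes the diet effects of both strains had a Pearson r of 0.825 and a Spearman rho of 0.832 over the 13901 genes, which come from the same libraries and are not independent replicates. Without adjustment, 1319 genes (9.49%) had a p under 0.05 for the term, 635 higher (4.57%) and 684 lower (4.92%), and the median term of all genes was -0.01 on the log2 scale.

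**Figure D1:**
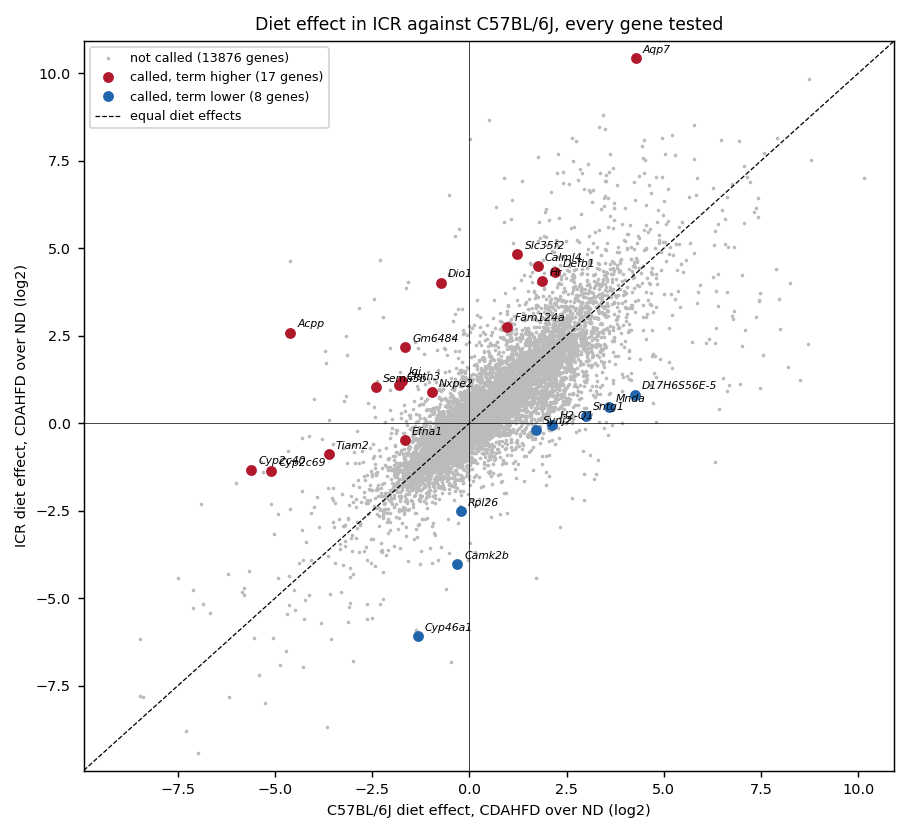
Log2 diet effect (CDAHFD over ND) of every gene tested in ICR (vertical axis) against C57BL/6J (horizontal axis), with the dashed line marking equal effects. The 17 genes with a called positive term lie above the line and the 8 with a called negative term below it, and the ICR value of Aqp7 is a fitted value against a group without counts.

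The number of called genes depended on single libraries. It was 24, 8 and 9 without ICR CDAHFD replicates 1, 2 and 3, and 136, 21 and 13 without ICR ND replicates 1, 2 and 3. It was 10, 10 and 8 without C57BL/6J CDAHFD replicates 1, 2 and 3, and 6, 14 and 13 without C57BL/6J ND replicates 1, 2 and 3. D17H6S56E-5, Rpl26, Tiam2, Acpp and Slc35f2 were called in all 12 of these fits and Cyp46a1, Calml4 and Dio1 in 11, while each of the other 17 genes was called in 1 to 5. None of the 25 terms changed sign in any of them.

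Of the 25 genes, 12 were called for diet in both strains with the same direction (32.5% of all genes), 5 in opposite directions (0.0791%), 3 in ICR only (9.16%) and 5 in C57BL/6J only (13.1%). The strains were called apart on ND only for 15 of the 25 genes (13% of all genes), on both diets for 5 (8.48%) and on CDAHFD only for 5 (7.14%). The gap between the strains was larger on ND for 17 genes and larger on CDAHFD for 8. On CDAHFD 5 of the 25 were called higher in ICR than in C57BL/6J (8.13% of all genes) and 5 lower (7.5%), and on ND 3 were called higher (11.3%) and 17 lower (10.1%). Libraries of the 2 diets did not overlap for 21 genes in ICR (52.6% of all genes) and for 20 in C57BL/6J (57.7%), and libraries of the 2 strains did not overlap for 15 on CDAHFD (44.5%) and for 24 on ND (35.4%). These counts describe the term, which is made of the same values. By place in the genome (GENCODE M21, GRCm38), 5 of the called genes lie on chromosome 9, which holds 5.59% of the tested genes. On chromosome 17, which holds 4.94%, lie 4. Of these, D17H6S56E-5 was placed by RefSeq, and the shares count genes of GENCODE M21 only.

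The promoters of 4 genes are shown because they hold ISRE letters: 2 genes called for the term, and 2 members of the interferon lists that were not called. Promoters of 300 bases, 250 before and 50 after the start, came from RefSeq (GRCm38.p6) and were searched on both strands for GAAANNGAAA (ISRE) and for TTCNNNGAA (GAS, whose letters read the same on either strand and which can overlap an ISRE). ISRE letters stood in 3.44% of the 32851 promoters of the table, or in 3.99% of its 27025 genes, and GAS letters in 9.55% of the genes. Among the called genes, 21 had a promoter in the table, of which 2 held ISRE letters, D17H6S56E-5 and the gene that the deposited table names Mnda and GENCODE M21 names Ifi211. The promoters of these 2 genes and of Ifit3 and Irgm2, members of the interferon lists described further on, are printed 5′ to 3′ along the gene's strand with the ISRE letters in capitals.
D17H6S56E-5 (chr17:35000697-35000996, minus strand): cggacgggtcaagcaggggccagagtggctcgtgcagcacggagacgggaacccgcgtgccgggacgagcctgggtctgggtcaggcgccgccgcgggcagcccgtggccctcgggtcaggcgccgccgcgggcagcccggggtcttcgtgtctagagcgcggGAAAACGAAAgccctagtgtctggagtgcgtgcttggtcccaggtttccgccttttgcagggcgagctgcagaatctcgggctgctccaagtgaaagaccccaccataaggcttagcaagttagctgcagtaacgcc
Mnda, Ifi211 in RefSeq (chr1:173912997-173913296, minus strand): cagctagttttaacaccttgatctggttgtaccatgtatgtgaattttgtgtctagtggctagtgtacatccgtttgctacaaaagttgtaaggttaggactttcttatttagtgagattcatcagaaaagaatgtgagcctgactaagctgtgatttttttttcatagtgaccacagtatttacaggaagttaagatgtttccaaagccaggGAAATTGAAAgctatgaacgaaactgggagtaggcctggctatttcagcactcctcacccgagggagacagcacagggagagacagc
Ifit3 (chr19:34583279-34583578, plus strand): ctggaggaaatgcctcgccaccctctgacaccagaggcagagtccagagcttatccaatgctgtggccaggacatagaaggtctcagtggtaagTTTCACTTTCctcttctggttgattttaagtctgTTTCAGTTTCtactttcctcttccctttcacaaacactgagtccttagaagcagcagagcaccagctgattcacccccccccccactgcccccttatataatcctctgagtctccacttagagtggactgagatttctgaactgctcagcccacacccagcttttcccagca
Irgm2 (chr11:58214727-58215026, plus strand): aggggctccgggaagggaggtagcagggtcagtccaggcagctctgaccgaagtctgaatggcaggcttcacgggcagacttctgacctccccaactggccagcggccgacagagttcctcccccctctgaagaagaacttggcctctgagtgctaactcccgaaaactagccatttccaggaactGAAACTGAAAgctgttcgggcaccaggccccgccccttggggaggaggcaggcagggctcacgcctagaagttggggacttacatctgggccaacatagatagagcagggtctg
The match begins 87 bases before the start in D17H6S56E-5, 37 bases before it in Mnda, and 64 bases before it in Irgm2. Ifit3 holds 2 matches, 156 and 122 bases before its start and on the other strand. A match is a run of letters and was not tested as a binding site.

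D17H6S56E-5 rose in both strains and Mnda in C57BL/6J alone, and both had a called negative term. D17H6S56E-5, a gene of chromosome 17 that GENCODE M21 does not list, had 9.12, 7.84 and 6.14 CPM in ICR CDAHFD livers, against 3.79, 5.69 and 3.7 CPM in ICR ND livers. In C57BL/6J it had 143, 139 and 243 CPM on CDAHFD, against 9.43, 8.57 and 9.53 CPM on ND. CDAHFD libraries lay above ND libraries in both strains, but the C57BL/6J CDAHFD livers stood more than an order of magnitude above every other library. The log2 diet effect was 0.81 in ICR and 4.25 in C57BL/6J, and the term was -3.44 (SE 0.35, adjusted p = 0.00196). Vars, a valyl-tRNA synthetase gene that neighbours it in RefSeq and was looked up after these values were seen, averaged 30.7 ± 1.66 CPM in ICR CDAHFD livers, 31.4 ± 3.94 CPM in ICR ND livers, 54.6 ± 4.03 CPM in C57BL/6J CDAHFD livers and 32 ± 1.47 CPM in C57BL/6J ND livers (SD, n = 3 each), with a term of -0.8 that was not called.

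Mnda belongs to the interferon-inducible HIN-200 family, whose members sense DNA. It had 1.56, 0.692 and 1.91 CPM in ICR CDAHFD livers, against 0.737, 1.63 and 0.662 CPM in ICR ND livers. In C57BL/6J livers it had 29.1, 26.9 and 33.1 CPM on CDAHFD, against 2.3, 2.59 and 2.54 CPM on ND. The ICR groups overlapped and the C57BL/6J groups did not (against 57.7% of all genes that did not). The term was -3.12 (SE 0.52, adjusted p = 0.0444). The transcripts of Ifi204, Ifi205 and Mndal share at least 95% identity over at least 50% of the Mnda sequence, so reads may be divided between these genes. Their own terms were -1.73, -4.35 and -1.91, none of them called, with log2 diet effects of 0.82, -1.04 and -0.39 in ICR, not called, and of 2.56, 3.31 and 1.52 in C57BL/6J, called.

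H2-Q1, an MHC class I gene of the Q region on chromosome 17, showed a like pattern. Its levels were 5.14, 4.35 and 8.07 CPM in ICR CDAHFD livers, against 5.75, 8.0 and 4.3 CPM in ICR ND livers. In C57BL/6J they were 45.7, 34.1 and 41.6 CPM on CDAHFD, against 9.53, 9.55 and 8.68 CPM on ND. The ICR groups overlapped, and only C57BL/6J was called for diet (log2 2.13). Reads of both strains were aligned to the same mouse reference, and whether ICR reads of this gene map less well was not tested. The term was -2.17 (SE 0.36, adjusted p = 0.0444).

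Both interferon lists had terms below 0 for nearly every member, without a called member. The guanosine triphosphatases induced by interferon-gamma, which attack the vacuoles of intracellular pathogens, had a negative term in 15 of 15 tested members and a median of -2.09, against -0.01 for all genes. An unadjusted p under 0.05 was found for 13 of them, all lower, against 4.92% of all genes. In the list of genes stimulated by type I interferon, 36 of 37 tested members had a negative term, the median was -1.36, and 27 had an unadjusted p under 0.05, all lower. DESeq2 called 2 of the 15 and 11 of the 37, against 1.73% of all genes. By limma-voom 0 members of either list were called, and the median terms were -1.46 and -1.18. There 8 of the 15 and 25 of the 37 had an unadjusted p under 0.05, against 8.67% of all genes.

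The diet effects behind these terms lay on both sides. Of the 37 type I members, 7 rose and 1 fell in ICR (22.3% of all genes rose and 19.4% fell), with a median log2 effect of 0.12, while 31 rose and 0 fell in C57BL/6J (25% of all genes rose), with a median of 1.77. Of the 15 guanosine triphosphatase genes, 0 rose and 4 fell in ICR with a median of -0.82, while 8 rose and 0 fell in C57BL/6J with a median of 1.54. ISRE letters stood in the promoters of 8 of the 9 such genes that had one in the table and in 14 of 27 type I genes, and GAS letters in 5 of 9 and 6 of 27. Diet effects depend on the scaling: with library sizes alone the median diet effect of all genes was 0.61 in ICR and 0.67 in C57BL/6J, and then 19 of 37 type I members rose in ICR and 37 in C57BL/6J, and 2 of 15 guanosine triphosphatase genes rose and 2 fell in ICR while 14 rose in C57BL/6J. The medians of the term moved little, to -1.38 and -2.08.

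**Figure D2:**
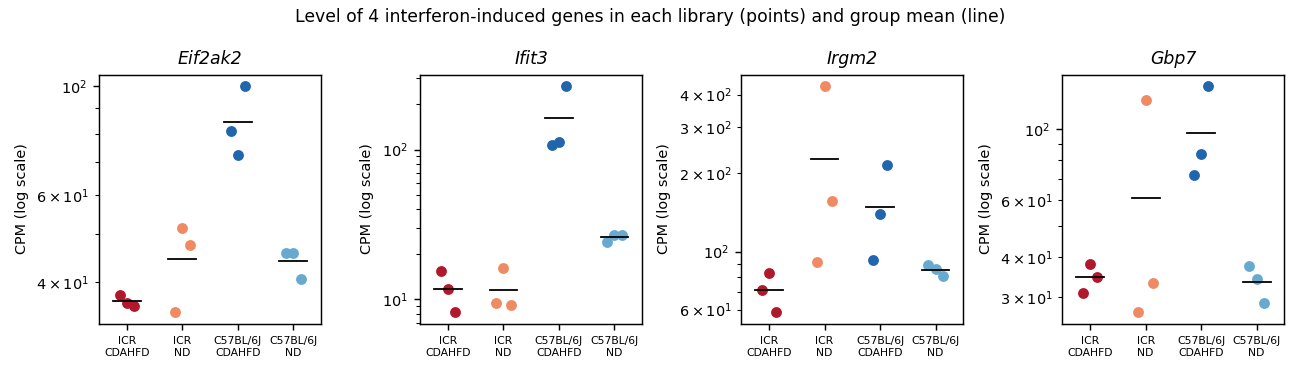
CPM on a log scale of Eif2ak2, Ifit3, Irgm2 and Gbp7 in each library (points) with the group mean (line), for ICR CDAHFD, ICR ND, C57BL/6J CDAHFD and C57BL/6J ND. Replicate 2 of the ICR ND group is the highest of all 12 libraries for Irgm2 (432 CPM), and for Ifit3 the 3 C57BL/6J CDAHFD livers are the highest.

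Eif2ak2, the kinase PKR that stops translation when it binds double-stranded RNA, had 37.6, 36.2 and 35.8 CPM in ICR CDAHFD livers, against 34.7, 51.5 and 47.6 CPM in ICR ND livers. C57BL/6J livers had 81.1, 72.3 and 100 CPM on CDAHFD, against 45.7, 45.8 and 40.6 CPM on ND. It had the smallest p of the type I list, with a term of -1.23 (SE 0.22) whose adjusted p of 0.0546 missed the threshold. Ifit3, an antiviral protein of the interferon-induced tetratricopeptide repeat family, had 15.5, 11.7 and 8.21 CPM in ICR CDAHFD livers, against 9.39, 16.3 and 9.21 CPM in ICR ND livers. In C57BL/6J livers Ifit3 had 108, 113 and 266 CPM on CDAHFD, against 24.3, 27 and 27 CPM on ND, and its term was -2.62 (SE 0.50, adjusted p = 0.0702). For both genes the ICR diets overlapped and the C57BL/6J CDAHFD livers lay above all others.

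Irgm2, a guanosine triphosphatase that regulates its relatives, had its highest level in an ICR ND liver. It had 71.6, 83.2 and 58.6 CPM in ICR CDAHFD livers, against 91.1, 432 and 157 CPM in ICR ND livers. In C57BL/6J livers it had 93.2, 139 and 214 CPM on CDAHFD, against 89, 85.8 and 80.8 CPM on ND. Irgm2 thus fell in ICR (log2 -1.67, adjusted p = 0.012), with replicate 2 of ICR ND far above the rest, and was not called in C57BL/6J (0.80). Gbp7, a guanylate-binding protein, had 31, 38.1 and 34.8 CPM in ICR CDAHFD livers and 27, 123 and 33.3 CPM in ICR ND livers. Its C57BL/6J levels were 71.9, 83.4 and 136 CPM on CDAHFD and 37.5, 34.2 and 28.9 CPM on ND. Neither term was called (Irgm2 -2.47, adjusted p = 0.197, and Gbp7 -2.35, adjusted p = 0.233). Exons of Irgm2 overlap Igtp, another member of the list, on the same strand, so reads there cannot be told apart.

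The size of the interferon difference rested in part on the ICR ND libraries. Summed over the guanosine triphosphatase list, ICR CDAHFD livers had 1188, 1251 and 1185 CPM, and ICR ND livers had 1464, 5186 and 1908 CPM. Such a sum is weighted to the most abundant members. By mean log2 level relative to the 12 libraries, ICR CDAHFD livers had -0.05, -0.08 and -0.26, and ICR ND livers -1.31, 1.64 and -0.38. By that measure only replicate 2 of the ICR ND group lay above the ICR CDAHFD livers. Without ICR ND replicate 2, which also had the highest acute phase sum, the median term of that list was -0.76, its median ICR diet effect became 0.82, with 6 members that rose and 1 that fell, and 10 of 15 members had an unadjusted p under 0.05. The type I list then had a median term of -0.86 with 22 of 37. Without ICR ND replicate 1, the library with the lowest mean log2 level of both lists, 6 of 15 and 9 of 37 members were called, among them Irgm2 (adjusted p = 0.038), Eif2ak2 (0.0154) and Ifit3 (0.0423). That fit called 136 of 14186 genes, and 16.6% of all genes had an unadjusted p under 0.05, against 9.49% with all 12 libraries. The part of inflammation in these ND livers in the term was not tested. In each of the 12 fits without a library both list medians stayed below 0, at -2.56 to -0.76 and at -1.65 to -0.86.

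**Figure D3:**
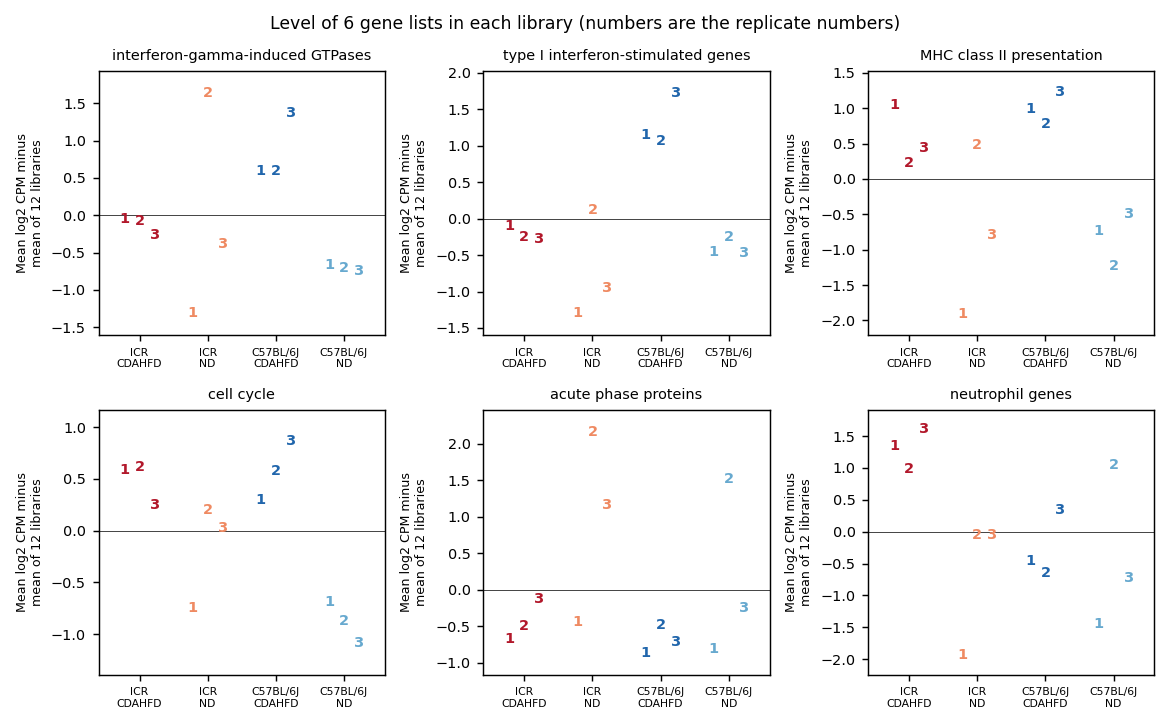
Mean log2 CPM of 6 gene lists in each library relative to the mean of the 12 libraries, with the replicate number as the symbol, for ICR CDAHFD, ICR ND, C57BL/6J CDAHFD and C57BL/6J ND. In the ICR ND group replicate 1 is the lowest of all libraries for both interferon lists and for MHC class II, and replicate 2 is the highest of all libraries for the guanosine triphosphatases and the acute phase proteins.

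In the MHC class I list 14 of 20 tested members had a negative term (median -0.64), 6 had an unadjusted p under 0.05, all lower, against 4.92% of all genes, and H2-Q1 was called. Without ICR ND replicate 2 that median was -0.22, and without ICR ND replicate 1 or 3 the 6 members became 11. In these last 2 fits 16.6% and 8.23% of all genes had an unadjusted p under 0.05. H2-T23, which encodes the ligand Qa-1 of natural killer cell receptors, had 115, 125 and 205 CPM in ICR CDAHFD livers, against 183, 315 and 242 CPM in ICR ND livers. The C57BL/6J livers held 345, 332 and 378 CPM on CDAHFD, against 247, 253 and 315 CPM on ND, and its term of -1.11 was not called (adjusted p = 0.274). The MHC class II list, expressed by antigen-presenting cells, had a median term of -0.79 with 0 of 11 members at an unadjusted p under 0.05. That median turned to 0.25 without ICR ND replicate 2, so it has no settled direction.

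The genes called for diet in opposite directions came from several functions. Acpp, the prostatic acid phosphatase (chr9:104288251-104337748), had 0.554, 0.98 and 1.11 CPM in ICR CDAHFD livers, against 0.0983, 0.113 and 0.221 CPM in ICR ND livers. C57BL/6J mice had 0.682, 1.06 and 0.767 CPM on CDAHFD, against 13.6, 35.2 and 12.9 CPM on ND. On CDAHFD the strains overlapped, whereas on ND no ICR library came near a C57BL/6J library. The log2 diet effects were 2.58 in ICR and -4.61 in C57BL/6J, and the term of 7.2 (SE 0.73, adjusted p = 0.00196) was the largest of the 25. The ICR ND value rests on 2, 2 and 4 counts.

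Gm6484, named Angptl8 in GENCODE M21, encodes a secreted protein of lipid handling that liver makes after feeding. It had 42.6, 39.1 and 62.1 CPM in ICR CDAHFD livers, against 12, 7.83 and 11.8 CPM in ICR ND livers. In C57BL/6J it had 9.75, 19.6 and 17.3 CPM on CDAHFD, against 48.3, 19.4 and 78.4 CPM on ND. The ICR diets did not overlap, while in C57BL/6J CDAHFD replicate 2 lay just above ND replicate 2. The term was 3.83 (SE 0.60, adjusted p = 0.0396), from a log2 diet effect of 2.18 in ICR and -1.65 in C57BL/6J.

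Clstn3, of the calsyntenin family of membrane proteins, had 6.27, 7.26 and 8.82 CPM in ICR CDAHFD livers, against 3.49, 4.11 and 2.92 CPM in ICR ND livers. Its C57BL/6J levels were 5.51, 7.34 and 7.37 CPM on CDAHFD, against 27.2, 12.8 and 30.7 CPM on ND. The CDAHFD livers of both strains thus held similar amounts, with a strain difference of 0.14 (adjusted p = 0.76). The term of Clstn3 was 2.89 (SE 0.42, adjusted p = 0.0228). Nxpe2 had the reverse layout, with overlap on neither diet but a larger gap on CDAHFD: 51.4, 68.3 and 79.5 CPM in ICR CDAHFD livers, 29.9, 36.3 and 42 CPM in ICR ND livers, 18.1, 31.9 and 25.8 CPM in C57BL/6J CDAHFD livers and 52.5, 47.1 and 48.9 CPM in C57BL/6J ND livers (term 1.85, SE 0.30, adjusted p = 0.0444).

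Igj, the joining chain of polymeric antibodies named Jchain in GENCODE M21, had 3.82, 7.95 and 9.26 CPM in ICR CDAHFD livers, against 3.29, 3.1 and 2.65 CPM in ICR ND livers. C57BL/6J livers had 4.72, 2.03 and 3.15 CPM on CDAHFD, against 8.85, 14.2 and 10.3 CPM on ND. Neither strain's diets overlapped, and the term was 2.96 (SE 0.51, adjusted p = 0.0478). Another antibody gene, Ighg2c, was among the 6 further genes called for diet in opposite directions whose term missed the threshold, named here after their values were seen: Ighg2c (5.1), Bcl7c (1.98), Sec61b (0.89), Mettl9 (0.90), Sertad4 (-3.73) and Bod1l (-0.7).

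Thyroid hormone genes held 2 called members of 22 tested, against 0.18% of all genes called. Dio1 (chr4:107291465-107307169) had 30.4, 91.3 and 55.8 CPM in ICR CDAHFD livers, against 1.72, 4.56 and 4.74 CPM in ICR ND livers. Its C57BL/6J levels were 67, 94.4 and 105 CPM on CDAHFD, against 99.5, 220 and 124 CPM on ND. ICR ND was the group that stood apart, below every other library, and the strains overlapped on CDAHFD. Dio1 rose in ICR (log2 4.02) and was not called in C57BL/6J (-0.74), with a term of 4.75 (SE 0.64, adjusted p = 0.0126).

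Hr, the corepressor hairless, is a known thyroid hormone target in rodent brain. It had 17.1, 18 and 12.8 CPM in ICR CDAHFD livers, against 0.639, 1.35 and 0.883 CPM in ICR ND livers. In C57BL/6J livers Hr had 6.54, 6.34 and 5.78 CPM on CDAHFD, against 1.47, 2.07 and 1.54 CPM on ND. It rose in both strains, more in ICR (log2 4.07 against 1.88), and no pair of groups compared here overlapped (term 2.19, SE 0.37, adjusted p = 0.0444). The list as a whole did not move one way, with 12 positive and 10 negative terms and a median of 0.14. An unadjusted p under 0.05 was found for 4 of 22 members, 3 higher and 1 lower, against 9.49% of all genes.

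**Figure D4:**
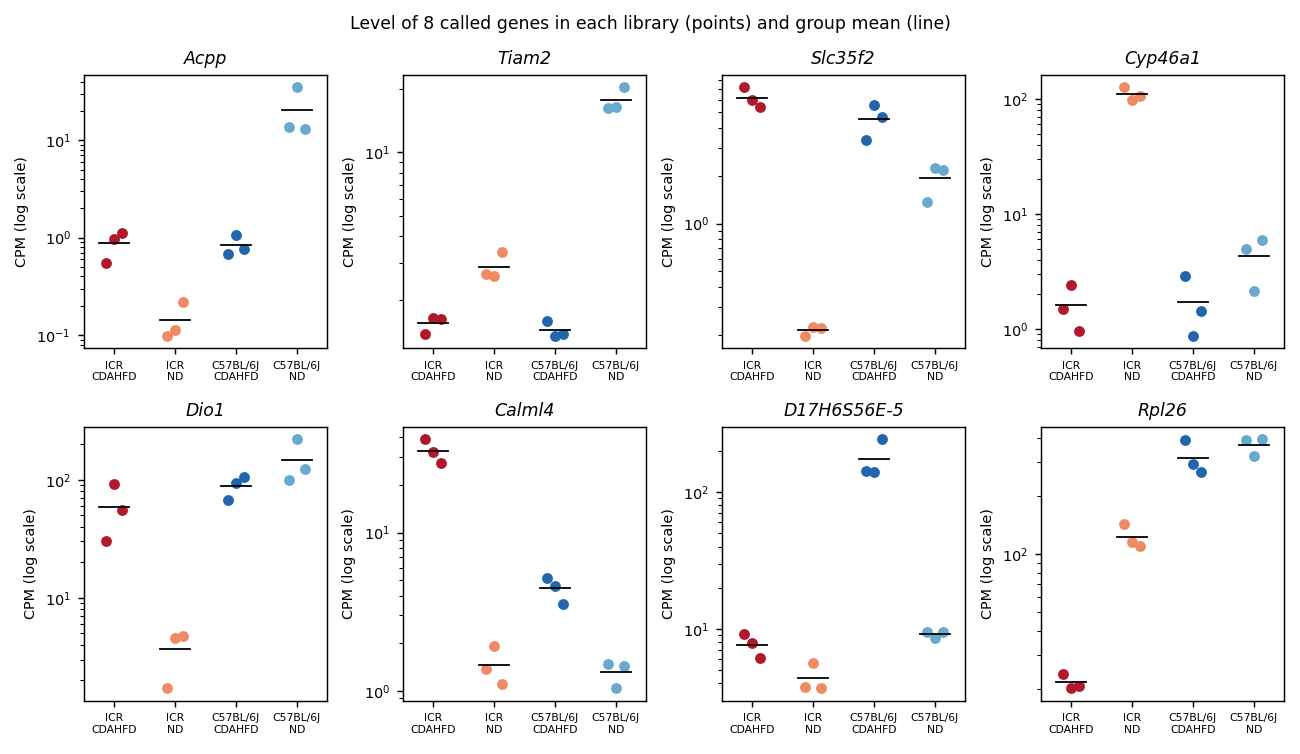
CPM on a log scale of the 8 genes called in at least 11 of the 12 fits without a library, in each library (points) with the group mean (line), for ICR CDAHFD, ICR ND, C57BL/6J CDAHFD and C57BL/6J ND. For Acpp, Tiam2, Slc35f2, Cyp46a1 and Dio1 the strains lie further apart on ND than on CDAHFD, and for Calml4, D17H6S56E-5 and Rpl26 further apart on CDAHFD.

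Several genes had levels in the CDAHFD livers of both strains that overlapped, after being far apart on ND. Cyp46a1, the cholesterol 24-hydroxylase known mainly from brain (chr12:108334381-108362234), had 1.48, 2.42 and 0.967 CPM in ICR CDAHFD livers, against 127, 98.1 and 105 CPM in ICR ND livers. The C57BL/6J livers held 2.9, 0.872 and 1.42 CPM on CDAHFD, against 4.92, 2.13 and 5.98 CPM on ND. High expression was thus found in ICR ND livers alone, and the term was -4.75 (SE 0.63, adjusted p = 0.0126). Tiam2, an exchange factor for the small GTPase Rac (chr17:3326573-3531344), had 1.37, 1.64 and 1.63 CPM in ICR CDAHFD livers and 2.65, 2.59 and 3.36 CPM in ICR ND livers. C57BL/6J mice had 1.59, 1.35 and 1.37 CPM on CDAHFD and 16.3, 16.4 and 20.4 CPM on ND, and it fell in both strains with a term of 2.73 (SE 0.28, adjusted p = 0.00196).

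Slc35f2, a membrane transporter of the solute carrier families (chr9:53771538-53818154), rose in both strains. It had 7.22, 5.96 and 5.39 CPM in ICR CDAHFD livers, against 0.197, 0.225 and 0.221 CPM in ICR ND livers, which rest on 4 counts each. In C57BL/6J it had 3.35, 5.55 and 4.66 CPM on CDAHFD, against 1.36, 2.24 and 2.17 CPM on ND. The term was 3.6 (SE 0.45, adjusted p = 0.00918), and the C57BL/6J ND livers lay above the ICR ND livers and below every CDAHFD liver.

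Defb1 and Aqp7 had the same layout. Defb1, a secreted antimicrobial beta-defensin, had 15, 10.3 and 8.85 CPM in ICR CDAHFD livers and 0.688, 0.45 and 0.552 CPM in ICR ND livers, and 13.6, 15.7 and 16.4 CPM in C57BL/6J CDAHFD livers and 3.88, 3.22 and 2.81 CPM in C57BL/6J ND livers (term 2.11, SE 0.36, adjusted p = 0.0444). Aqp7, the glycerol channel of fat cells, had 7.25, 6.22 and 5.39 CPM in ICR CDAHFD livers and no count in ICR ND livers, so with 3 counts over the whole ICR ND group as the limit of detection the CDAHFD level was at least 118-fold higher. In C57BL/6J livers Aqp7 had 6.28, 4.83 and 4.9 CPM on CDAHFD and 0.367, 0.23 and 0.212 CPM on ND. Its term was called (adjusted p = 0.0444), and its fitted size depends on the prior count.

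Among the remaining genes with a larger gap on ND, Fam124a (term 1.79), Efna1 (1.19), Synj2 (-1.9), Sema5b (3.45) and Sntg1 (-2.78) were called, with adjusted p of 0.0251 to 0.0478. Efna1, a ligand of Eph receptors, had 47.7, 45.6 and 45.8 CPM in ICR CDAHFD livers and 77.3, 54.8 and 61.8 CPM in ICR ND livers, and it fell further in C57BL/6J, with 34.9, 37.9 and 33.8 CPM on CDAHFD and 104, 102 and 132 CPM on ND. Synj2, an inositol phosphatase, was called for diet in C57BL/6J alone, with 28.6, 21.4 and 25.3 CPM on CDAHFD and 4.98, 9.09 and 8.9 CPM on ND, and its ICR levels of 28.4 to 36 CPM on CDAHFD and 31.7 to 41.8 CPM on ND overlapped. Sntg1, a syntrophin, was likewise called for diet in C57BL/6J alone, and its C57BL/6J ND level of 0.265 to 0.345 CPM rests on 5 or 6 counts a library. Exons of Tiam2, Fam124a and Synj2 overlap a gene on the other strand (Tfb1m, Gm4131 and Serac1). The terms of Tfb1m (-0.35) and Serac1 (-0.11) were not called.

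Other genes drew apart on CDAHFD. Calml4, a calmodulin-like protein of brush borders (chr9:62858080-62875921), had 38.9, 32.4 and 27.5 CPM in ICR CDAHFD livers, against 1.38, 1.91 and 1.1 CPM in ICR ND livers. C57BL/6J livers had 5.2, 4.6 and 3.53 CPM on CDAHFD, against 1.47, 1.04 and 1.43 CPM on ND. It rose in both strains, the strains overlapped on ND, and the term was 2.74 (SE 0.35, adjusted p = 0.0107). Camk2b, a subunit of a calcium-dependent kinase, fell in ICR alone, with 0.474, 3.03 and 2.63 CPM in ICR CDAHFD livers against 35.6, 21.9 and 42.9 CPM in ICR ND livers, while C57BL/6J had 14.9, 15.1 and 10.2 CPM on CDAHFD and 14.2, 15.8 and 19.9 CPM on ND (term -3.73, SE 0.65, adjusted p = 0.0478).

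Rpl26, a protein of the large ribosomal subunit (chr11:68901583-68906989), had 23.9, 20.1 and 20.6 CPM in ICR CDAHFD livers, against 143, 115 and 110 CPM in ICR ND livers. Its C57BL/6J levels were 393, 293 and 267 CPM on CDAHFD, against 394, 323 and 396 CPM on ND. Rpl26 fell in ICR (log2 -2.51) and was not called in C57BL/6J (-0.22), and its term was -2.29 (SE 0.24, adjusted p = 0.00229). It was the only member of 78 cytosolic ribosomal protein genes with an unadjusted p under 0.05, and 67 of the 78 terms were positive, with a median of 0.21. The transcripts of 5 annotated copies (Gm10136, Gm11826, Gm13268, Gm15772 and Gm8253) share at least 95% identity with it over at least 50% of its length, so the count of Rpl26 depends on how reads were divided between copies.

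Among sex-biased genes of mouse liver, 2 of 22 tested female-biased and 0 of 34 male-biased genes were called, against 0.18% of all genes. Both called genes are cytochrome P450 genes of the 2c family on chromosome 19 that are more expressed in females. Cyp2c40 had 1.05, 2.19 and 1.55 CPM in ICR CDAHFD livers, against 2.61, 2.37 and 7.06 CPM in ICR ND livers. The C57BL/6J livers held 0.455, 0.608 and 0.548 CPM on CDAHFD, against 25.8, 37.2 and 16.8 CPM on ND. It fell in both strains and much more in C57BL/6J (log2 -1.33 against -5.62, term 4.29, SE 0.64, adjusted p = 0.0275). Cyp2c69 followed it, with 0.58, 0.634 and 0.304 CPM in ICR CDAHFD livers, 1.23, 0.845 and 1.88 CPM in ICR ND livers, 0.284, 0.264 and 0.192 CPM in C57BL/6J CDAHFD livers and 8.07, 12.7 and 5.03 CPM in C57BL/6J ND livers (term 3.72, SE 0.63, adjusted p = 0.0444). These genes are near-identical to each other and to Cyp2c67 and Cyp2c68, whose terms were -0.04 and 0.24, so the division of reads between them is uncertain and the pair is not independent.

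The wider sex-biased lists did not move one way. All 34 tested male-biased genes fell in ICR (19.4% of all genes fell) and 33 fell in C57BL/6J (20.6% of all genes fell). The term had an unadjusted p under 0.05 for 16 of 34, 9 higher and 7 lower, against 9.49% of all genes. Its median in this list was 0.40, and none was called. That median was 0.17 without C57BL/6J CDAHFD replicate 1, where 1 member was called, and 0.26 without C57BL/6J ND replicate 1. Without ICR ND replicate 1, 3 members were called, against 136 of all 14186 genes. Many of these are major urinary protein genes, which are near-identical copies, so their single values are uncertain. Susd4, a complement regulator, had 1.79, 0.922 and 1.33 CPM in ICR CDAHFD livers, against 95.5, 74.2 and 126 CPM in ICR ND livers, and 2.76, 7.69 and 7.01 CPM in C57BL/6J CDAHFD livers, against 64, 68.4 and 75 CPM in C57BL/6J ND livers (term -2.62, adjusted p = 0.0546). Cyp4a12a, which makes the vasoactive lipid 20-HETE, went the other way, with 244, 287 and 224 CPM in ICR CDAHFD livers, against 1310, 739 and 690 CPM in ICR ND livers, and 39.5, 43.2 and 43 CPM in C57BL/6J CDAHFD livers, against 655, 397 and 522 CPM in C57BL/6J ND livers (term 1.79, adjusted p = 0.0817). Of 22 tested female-biased genes, 15 terms were negative and 7 positive, with a median of -0.66 although both called members were positive. The median was -0.37 without ICR ND replicate 2 and -0.17 without both ND libraries numbered 2. No member was called without ICR CDAHFD replicate 2 or 3, any one C57BL/6J CDAHFD library, or C57BL/6J ND replicate 1 or 2.

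**Figure D5:**
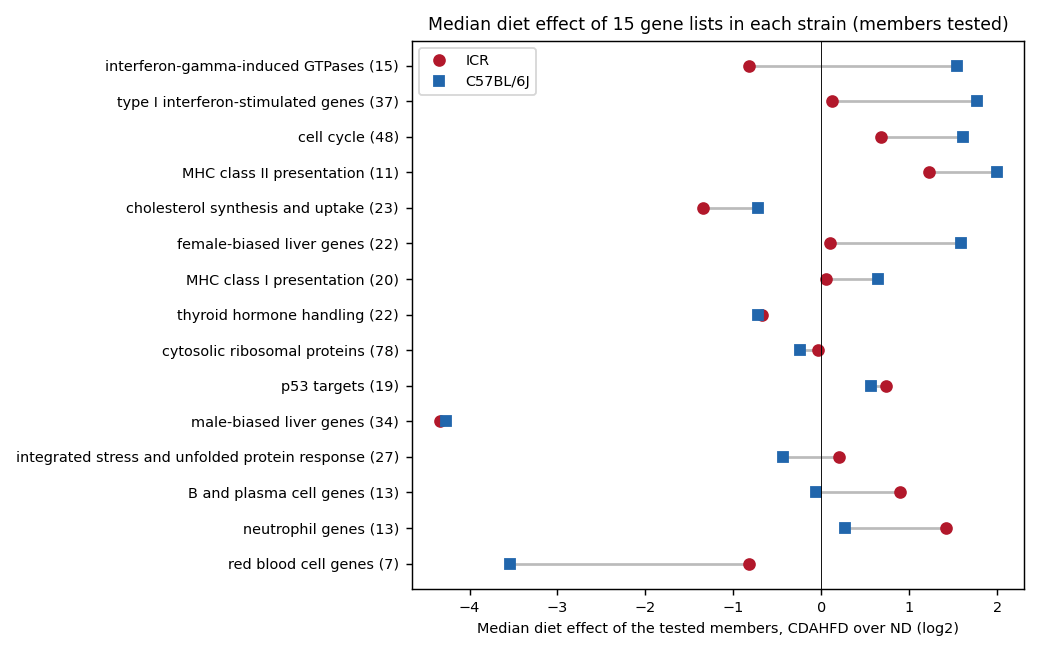
Median log2 diet effect (CDAHFD over ND) of the tested members of 15 gene lists in ICR (circles) and C57BL/6J (squares), ordered by the median strain by diet term, with the number of tested members in brackets. Both interferon lists, at the top, lie near or below 0 in ICR and above 1.5 in C57BL/6J, and the red blood cell list, at the bottom, has medians of -0.83 in ICR and -3.54 in C57BL/6J.

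Cell division genes had mostly negative terms, without a called member. Of 48 tested cell cycle genes, 42 had a negative term (median -0.85) and 14 had an unadjusted p under 0.05, all lower, against 4.92% of all genes. In ICR 13 of 48 rose and 2 fell, near the 22.3% of all genes that rose, or 39 and 1 with library sizes alone. In C57BL/6J 38 of 48 rose and 2 fell, against 25% of all genes that rose. Kif23, a kinesin of the dividing cell's midbody, had 9.78, 7.61 and 5.94 CPM in ICR CDAHFD livers, against 2.31, 12.4 and 8.16 CPM in ICR ND livers. C57BL/6J mice had 7.76, 10.5 and 14.8 CPM on CDAHFD, against 2.2, 1.78 and 1.8 CPM on ND (term -2.48, adjusted p = 0.211). Bub1, a kinase of the spindle checkpoint, had 5.06, 5.68 and 3.04 CPM in ICR CDAHFD livers and 1.92, 2.59 and 2.37 CPM in ICR ND livers, and 3.72, 3.86 and 4.79 CPM in C57BL/6J CDAHFD livers and 0.786, 0.575 and 0.847 CPM in C57BL/6J ND livers (term -1.47, adjusted p = 0.237). CDAHFD levels of these genes overlapped between the strains, and every ICR ND liver lay above every C57BL/6J ND liver. With ICR ND replicate 1 left out, 25 of 48 had an unadjusted p under 0.05, against 16.6% of all genes. In that fit 3 of the 48 were called, against 136 of all 14186 genes. With ICR ND replicate 2, C57BL/6J CDAHFD replicate 3 or C57BL/6J ND replicate 3 left out, 0 were called and 7 of 48 had an unadjusted p under 0.05. The number was 8 without ICR CDAHFD replicate 3 and 22 without C57BL/6J CDAHFD replicate 1.

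Most stress genes had positive terms. In the list of the integrated stress and unfolded protein responses 23 of 27 terms were positive (median 0.50) and 6 had an unadjusted p under 0.05, all higher, against 4.57% of all genes. Among p53 targets the figures were 14 of 19 positive, a median of 0.38 and 7 of 19, all higher. Neither list had a called member, and the 6 of the first list became 2 without C57BL/6J CDAHFD replicate 3, 3 without ICR CDAHFD replicate 2 or C57BL/6J ND replicate 2, 10 without ICR CDAHFD replicate 1 and 15 without ICR ND replicate 2. Gdf15, a stress hormone that both lists hold, had 29.6, 17.3 and 12.2 CPM in ICR CDAHFD livers, against 1.38, 3.04 and 2.54 CPM in ICR ND livers. In C57BL/6J it had 7.05, 9.96 and 11.1 CPM on CDAHFD, against 2.78, 6.73 and 15.1 CPM on ND, so the diets overlapped there (term 2.9, SE 0.74, adjusted p = 0.194). Ddit3, the transcription factor CHOP of the stress response, had 6.91, 10.2 and 10.1 CPM in ICR CDAHFD livers, against 2.61, 2.08 and 1.82 CPM in ICR ND livers, and 6.57, 5.42 and 4.63 CPM in C57BL/6J CDAHFD livers, against 2.99, 2.24 and 7.52 CPM in C57BL/6J ND livers (term 1.68, adjusted p = 0.293). Exons of Ddit3 overlap Mars on the other strand. Btg2, an antiproliferative p53 target, rose in both strains, by log2 2.46 in ICR and 1.06 in C57BL/6J (term 1.4, adjusted p = 0.242).

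Blood cell genes had the most positive list medians. The red blood cell list had a positive term in 7 of 7 tested members and a median of 1.41. An unadjusted p under 0.05 was found for 6, all higher, against 4.57% of all genes, and none was called. In ICR 3 of the 7 fell (19.4% of all genes fell), and in C57BL/6J all 7 did (20.6%). Without ICR CDAHFD replicate 3, 2 of the 7 had an unadjusted p under 0.05 and the median was 0.98, and without ICR ND replicate 3, C57BL/6J CDAHFD replicate 1 or C57BL/6J ND replicate 1, 3 of the 7 did. Summed over the list, ICR CDAHFD livers had 150 to 268 CPM and ICR ND livers 475 to 885 CPM, and C57BL/6J CDAHFD livers had 45.5 to 79.7 CPM and C57BL/6J ND livers 403 to 594 CPM.

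The neutrophil list had a positive term in 9 of 13 members and a negative term in 4, with a median of 1.18. An unadjusted p under 0.05 was found for 6, all higher, against 4.57% of all genes. Summed over the list, ICR livers had 1173, 1333 and 1641 CPM on CDAHFD, against 41.3, 2306 and 875 CPM on ND. C57BL/6J livers had 1020, 675 and 718 CPM on CDAHFD, against 34.3, 1449 and 58.5 CPM on ND. These sums are weighted to the most abundant members, and the mean log2 level of the list ranked the libraries otherwise. Relative to the 12 libraries it was 1.35, 0.98 and 1.61 in ICR CDAHFD livers and -1.94, -0.05 and -0.05 in ICR ND livers. In C57BL/6J it was -0.47, -0.65 and 0.34 on CDAHFD and -1.45, 1.05 and -0.73 on ND. Camp, the antimicrobial cathelicidin of neutrophil granules, had 0.975, 0.576 and 1.11 CPM in ICR CDAHFD livers, against 0.0983, 0 and 0.11 CPM in ICR ND livers. Its C57BL/6J levels were 0.0568, 0 and 0.164 CPM on CDAHFD and 0.21, 0.978 and 0.106 CPM on ND, so replicate 2 of the ND group stood above the rest (term 6.03, SE 1.44, adjusted p = 0.166). Mpo, the myeloperoxidase of the same granules, had 1.45, 0.432 and 1.08 CPM in ICR CDAHFD livers, 0.0492, 0 and 0.662 CPM in ICR ND livers, 0.0568, 0 and 0.164 CPM in C57BL/6J CDAHFD livers and 0.314, 2.47 and 0.318 CPM in C57BL/6J ND livers (term 5.78, adjusted p = 0.252). Camp and Mpo had at most 12 counts in any ICR ND library and at most 6 in any C57BL/6J CDAHFD library. Without C57BL/6J ND replicate 2 the median term of the neutrophil list was 0.11, and without ICR ND replicate 2 it was 2.01. The B and plasma cell list, which holds Igj, had a positive term in 13 of 13 members and a median of 0.93, with 5 at an unadjusted p under 0.05, or 3 without ICR CDAHFD replicate 3 or C57BL/6J ND replicate 3. Of all genes 9.49% had such a p with every library, and 7.85% and 8.06% in those fits. Spib, a transcription factor of B cells and plasmacytoid dendritic cells, had 3.35, 1.44 and 3.68 CPM in ICR CDAHFD livers and 0.442, 0.507 and 0.331 CPM in ICR ND livers, and 2.27, 2.03 and 1.7 CPM in C57BL/6J CDAHFD livers and 1.15, 1.04 and 1.59 CPM in C57BL/6J ND livers (term 2.05, adjusted p = 0.227).

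Cholesterol genes had mostly negative terms. Of 23 tested genes of cholesterol synthesis and uptake, 20 fell and 0 rose in ICR (19.4% of all genes fell), and 7 fell and 0 rose in C57BL/6J (20.6%). With library sizes alone 10 fell and 1 rose in ICR, and 2 fell and 2 rose in C57BL/6J. The term was negative in 21 of 23, with a median of -0.7. An unadjusted p under 0.05 was found for 4, all lower, against 4.92% of all genes, and none was called. Those 4 became 11 without ICR ND replicate 2, 9 without C57BL/6J ND replicate 2, 2 without ICR ND replicate 1 and 16 without both ND libraries numbered 2, a setting chosen after seeing the data in which the median was -1.34. In that order, 9.34%, 9.98%, 16.6% and 9.93% of all genes had an unadjusted p under 0.05 in these fits. Without ICR CDAHFD replicate 1 the median was -0.46. Hsd17b7, which acts late in the pathway, had 29.3, 35.8 and 33.5 CPM in ICR CDAHFD livers, against 128, 141 and 213 CPM in ICR ND livers, and 33.1, 46.1 and 38.8 CPM in C57BL/6J CDAHFD livers, against 80.3, 118 and 60.2 CPM in C57BL/6J ND livers (term -1.16, adjusted p = 0.264). Stard4, a carrier of cholesterol in the cytosol, had 18, 32.3 and 34.6 CPM in ICR CDAHFD livers, against 103, 69.5 and 135 CPM in ICR ND livers, and 19, 33.1 and 30.9 CPM in C57BL/6J CDAHFD livers, against 41.2, 49.2 and 44 CPM in C57BL/6J ND livers (term -1.16, adjusted p = 0.334). For both genes the strains overlapped on CDAHFD, and every ICR ND liver lay above every C57BL/6J ND liver.

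Lipid storage and fat uptake gave single genes. Cd36, the fatty acid translocase, had 268, 532 and 645 CPM in ICR CDAHFD livers, against 12.4, 15.2 and 12.3 CPM in ICR ND livers. The C57BL/6J livers held 325, 564 and 567 CPM on CDAHFD, against 88.9, 36.2 and 81.9 CPM on ND, and its term of 2.36 was not called (adjusted p = 0.145). Cd36 therefore rose in both strains to levels that overlapped. In the lipid droplet list 3 of 19 members had an unadjusted p under 0.05, all higher, and in the list of fatty acid synthesis and desaturation 3 of 19 did, 1 higher and 2 lower. Of all genes 9.49% had such a p. Acacb, the acetyl-CoA carboxylase whose product restrains fatty acid oxidation, fell in both strains, with 15.5, 24.7 and 26.7 CPM in ICR CDAHFD livers, against 92.1, 209 and 139 CPM in ICR ND livers, and 20.8, 38.3 and 25.2 CPM in C57BL/6J CDAHFD livers, against 70.2, 72.8 and 37 CPM in C57BL/6J ND livers (term -1.62, adjusted p = 0.265).

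The scar and macrophage genes of steatohepatitis had similar median diet effects in both strains. Of 38 tested matrix and collagen genes 34 rose in ICR (22.3% of all genes rose) and 34 in C57BL/6J (25%), with median log2 effects of 3.2 and 2.78. Of their 38 terms 3 (2 higher, 1 lower) had an unadjusted p under 0.05, against 9.49% of all genes. Of 24 tested genes of lipid-associated macrophages 20 rose in ICR and 21 in C57BL/6J, with medians of 3.65 and 3.19, and 3 of 24 had an unadjusted p under 0.05. That number was 1 of 23 in the list of stellate cells, 0 of 18 in bile duct cells, 2 of 22 in hepatocytes, 0 of 16 in resident Kupffer cells and 1 of 29 in choline and methionine metabolism. A p that misses the threshold does not show equal responses. Itgax, the integrin CD11c, had 80.9, 94.9 and 163 CPM in ICR CDAHFD livers, against 2.16, 2.42 and 2.1 CPM in ICR ND livers, and 73.3, 62.2 and 75.2 CPM in C57BL/6J CDAHFD livers, against 2.72, 3.39 and 2.86 CPM in C57BL/6J ND livers (term 1.11, SE 0.34, adjusted p = 0.281). Fmod, the collagen-binding fibromodulin, was not called and had 1.34, 0.749 and 0.857 CPM in ICR CDAHFD livers, against 2.41, 0.225 and 0.221 CPM in ICR ND livers, and 15.3, 6.45 and 12.5 CPM in C57BL/6J CDAHFD livers, against 2.3, 1.32 and 1.8 CPM in C57BL/6J ND livers (term -2.64, SE 0.96, adjusted p = 0.376).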

How the data were processed

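Total liver RNA of 12 mice was sequenced as gene counts. Per the labels and the methods, the authors trimmed reads with fastp 0.23.4, aligned them with HISAT2 2.2.1 and counted them with featureCounts 2.0.6, and the deposited counts are whole reads per protein-coding gene, not normalized. The methods name mm10 and the labels mm39, and neither the annotation nor the strand setting was given in the sources used here. No strain had a reference of its own, and the part of sequence differences between the strains in the counts was not tested. The methods speak of ribosomal RNA depletion and the labels of mRNA purification. The 24 columns of per-sample FPKM and CPM were not used. Of 17713 lines, 3 repeated lines were dropped, and 13901 of 17710 genes passed filterByExpr (count minimum 10, total 15).

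All 4 groups were fitted together with edgeR 4.0.16 (R 4.3.3; TMM, quasi-likelihood F test, Benjamini-Hochberg adjustment, threshold 0.05), without a replicate block. The standard error is the log2 value divided by the root of F. The main test of the strain by diet term was checked on simulated counts, and the other contrasts and alternatives were not. With 3 mice a group, p-values rest on a spread between mice that was estimated for each gene over all 4 groups together. That spread was also drawn toward the spread of other genes. A spread that differs between inbred and outbred mice, or between single groups, was not modelled. Alternatives were other scalings, filters and tools (DESeq2 1.42.0, limma 3.58.1), thinned counts, a replicate block and each library left out. Genes named are all called genes and at most 2 members of each list by smallest p among those with an unadjusted p under 0.05, and a few items are not reported here. The members and lists were chosen with earlier results of these data known. Of 886 listed symbols, 862 matched the table and 818 were tested. Annotation and overlaps came from GENCODE M21 (GRCm38), promoters and the place of D17H6S56E-5 from RefSeq, and near-identical transcripts from BLAST 2.17.0.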

Additional observations from a re-analysis of the deposited data

Results flagged for a closer look

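The 25 genes below are those whose diet effect differed between ICR and C57BL/6J by edgeR's test of the strain by diet term, with adjusted p of 0.00196 to 0.0478. Each value is the log2 term, ICR diet effect minus C57BL/6J diet effect. Positive terms were found for Acpp (7.2), Aqp7 (6.15, a fitted value against a group without counts), Dio1 (4.75), Cyp2c40 (4.29), Gm6484 (3.83), Cyp2c69 (3.72), Slc35f2 (3.6), Sema5b (3.45), Igj (2.96), Clstn3 (2.89), Calml4 (2.74), Tiam2 (2.73), Hr (2.19), Defb1 (2.11), Nxpe2 (1.85), Fam124a (1.79) and Efna1 (1.19). Negative terms were found for Cyp46a1 (-4.75), Camk2b (-3.73), D17H6S56E-5 (-3.44), Mnda (-3.12), Sntg1 (-2.78), Rpl26 (-2.29), H2-Q1 (-2.17) and Synj2 (-1.9).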

How the results depend on the processing

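The direction of each of the 25 terms held under every setting run, while the number of genes called for the term moved. Against 25 (17 higher, 8 lower), library sizes without a composition factor gave 14 (10 higher, 4 lower), no filter on low counts 41 (16 lower), DESeq2 241 (123 higher, 118 lower, all 25 among them), edgeR's likelihood ratio test 232 (114 higher, 118 lower), limma-voom 5 (2 higher, 3 lower) and an adjusted p under 0.10 47 (28 higher, 19 lower). Leaving out single libraries gave 6 to 136 genes (4 to 57 higher, 2 to 79 lower). The replicate block gave 12 (9 higher, 3 lower), and 11 of these were among the 25. The replicate numbers were not treated as a pairing of the mice in the main fit. Same-numbered libraries of different groups had deviations that correlated at -0.114 to 0.401 (median 0.094). For libraries of different numbers the range was -0.403 to 0.206 (median -0.0714), and 6 of 12 libraries correlated best with their own number. Whether the numbers mark a shared batch was not tested. A setting chosen after seeing the data, which left out both ND libraries numbered 2, gave 23 genes (18 higher, 5 lower), of which 14 were among the 25. Genes called between the strains on CDAHFD numbered 2172, against 3476 at an adjusted p under 0.10 and 760 to 2868 without single libraries. On ND they numbered 2982, against 1788 without both ND libraries numbered 2 and 1255 to 4234 without single libraries. The median term of the MHC class II list was -1.32 to 0.249 without single libraries and 0.42 without both ND libraries numbered 2, and that of the thyroid hormone list was -0.0382 to 0.222 without single libraries. Library sizes alone moved the median diet effect of all genes to 0.61 in ICR and 0.67 in C57BL/6J on the log2 scale, and the median term to -0.05. The causes of these shifts were not tested. Counts of 4 or fewer a library set the ND levels of Acpp and Slc35f2 in ICR, and with 3 mice a group small differences were not detectable.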
